A study of Homo sapiens with 12 samples.

Results

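The Hippo kinase cascade and its upstream regulators were followed here as 10 transcripts, the MST kinases STK3 and STK4, their scaffold SAV1, the LATS kinases LATS1 and LATS2, the LATS co-activators MOB1A and MOB1B, and the upstream regulators NF2, TAOK1 and MAP4K4. Rows were matched to a fixed set of gene symbols, each symbol matched 1 row, and they are 10 of the 58051 genes in the count table. In the edgeR fit used throughout, no member differed from siControl past an adjusted p of 0.05 in any of the 3 knockdown groups. STK3 was the member farthest from its control level, at 47.2% of it after the double knockdown. It passed that threshold there with DESeq2, without the filter on low counts, without siControl replicate 1 and without replicate 1 of every group. Of the genes with an adjusted p, 8.53%, 1.19%, 24.4% and 17.9% passed in those settings. STK3 did not pass in the other settings, such as a fit blocked on replicate number (adjusted p = 0.224). Replicate number did not pair siNELFA+siYAP with siControl, as deviations of same-numbered libraries from their group means correlated at 0.00882, 0.0136 and -0.0144.

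In the Hippo pathway, MST kinases bound to SAV1 phosphorylate the LATS kinases, which then phosphorylate the co-activator YAP and its paralog TAZ with the help of MOB1, and phosphorylated YAP is held in the cytoplasm or degraded. NF2 (Merlin) recruits LATS to the membrane, while TAO kinases act on MST and LATS, and MAP4K kinases act on LATS in parallel to MST. LATS2 is widely described as a transcriptional target of YAP and its DNA-binding partners, the TEAD factors, which makes it a feedback arm of the pathway, and NELF-A is a subunit of the negative elongation factor that holds RNA polymerase II near promoters.

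RNA was sequenced from MDA-MB-231, an established triple-negative breast cancer cell line, in 4 groups of 3 libraries. All groups were transfected with siRNA pools at 50 to 100 nM: a scrambled pool (siControl), a pool to NELFA (siNELFA), a pool to YAP1 (siYAP), or both (siNELFA+siYAP). The labels list 48 h and 72 h after transfection for the cells, and the study's methods give 72 h for RNA. A transient knockdown leaves residual transcript, and a single cell line was used.

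The libraries held 9608145 to 18803104 assigned counts. NELFA was at 32.4% of siControl in siNELFA (log2 fold change -1.63 ± 0.21 SE, adjusted p = 0.381, or 0.000385 in a fit blocked on replicate number) and at 26.1% in siNELFA+siYAP (adjusted p = 0.0199), and YAP1 was at 15.8% in siYAP and 15.2% in siNELFA+siYAP (adjusted p = 0.0162 and 0.00118), so each target was lower where the labels place its siRNA. The mesenchymal marker VIM averaged 1001 TPM in siControl and CD44 799 TPM, while the oestrogen receptor ESR1 averaged 0.186 TPM, the progesterone receptor PGR 0.0166 TPM and the receptor kinase ERBB2 25.4 TPM there. The basal keratin KRT5 had 0 counts in all 12 libraries, which allows up to 3 counts (0.155 to 0.324 CPM) in each.

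Replicate 1 of siControl, siNELFA and siYAP stood apart from replicates 2 and 3 of the same groups, and line markers moved with it. The epithelial cadherin CDH1, which this line is known to lack, had 24.9, 47.0 and 16.3 CPM (counts scaled to library size) in replicate 1 of siControl, siNELFA and siYAP, against 0 to 0.936 CPM in replicates 2 and 3 and 0.215 to 0.828 CPM in siNELFA+siYAP. The epithelial adhesion gene EPCAM had 15.4 to 18.3 CPM in those replicate 1 libraries, against 4.66 to 9.56 and 4.97 to 8.66 CPM. Of the 6 markers listed as absent or low in the line, these 2 were highest in replicate 1 of all 3 groups, and the list summed to 87.7 to 121.3 CPM there, 57.7 to 88.7 CPM in replicates 2 and 3, and 54.9 to 57.6 CPM in siNELFA+siYAP. Of the 5 markers listed as present, VIM, AXL and MSN were lowest in replicate 1 of all 3 groups and CD44 highest, with sums of 4354 to 4950, 4812 to 6245 and 5765 to 5916 CPM. The part of these markers in the members' values was not tested beyond leaving libraries out.

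The biological coefficient of variation was 0.323, 0.304 and 0.314 in those groups and 0.0578 in siNELFA+siYAP, whose library names share 1 leading number. The methods describe independent biological replicates, but the labels do not say whether these libraries came from separate cultures. The p-values therefore measure only the spread between libraries, which may be technical. Differences of siNELFA+siYAP from siControl, as from the single knockdowns, cannot be told apart from a difference between sets of libraries.

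The members' levels per gene length spanned more than an order of magnitude in siControl, on the TPM scale, which corrects for transcript length and depth. MAP4K4 was highest at 191.7 ± 59.6 TPM (SD, n = 3), followed by MOB1A at 58.7 ± 12.8, STK4 at 48.3 ± 2.56, SAV1 at 41.5 ± 22.6 and TAOK1 at 40.1 ± 6.39 TPM. MOB1B at 19.7 ± 5.75, STK3 at 18.4 ± 6.98, LATS1 at 14.9 ± 1.57 and LATS2 at 14.5 ± 2.36 TPM came next, and NF2 was lowest at 5.22 ± 0.507 TPM. Between neighbours in this order, the libraries did not overlap for MAP4K4 and MOB1A, for TAOK1 and MOB1B, and for LATS2 and NF2, and the other neighbours overlapped. Within paralog pairs, STK4 was therefore more abundant than STK3 and MOB1A more abundant than MOB1B in every siControl library, whereas the LATS kinases were at similar levels. Raw counts ran from 121 for NF2 to 13931 for MAP4K4 over the 12 libraries, and all 10 members passed the filter on low counts in every comparison.

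**Figure D1:**
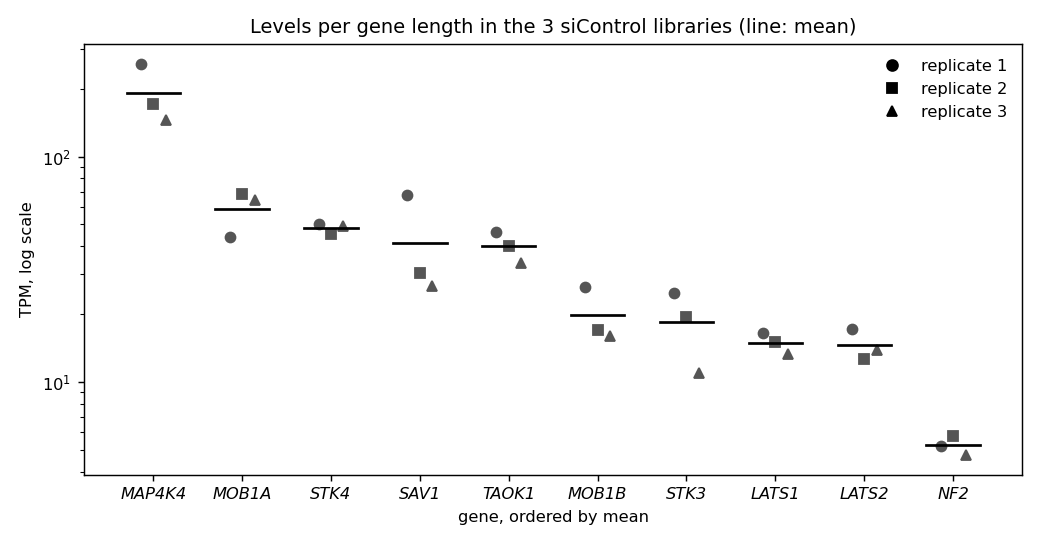
TPM (log scale) of the 10 members in the 3 siControl libraries, ordered by mean; each point is a library, its shape gives the replicate, and the line is the mean. MAP4K4 stands above the rest and NF2 below, while SAV1 spreads from 26.6 to 67.6 TPM.

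Part of the spread of the members followed the replicate number. SAV1 in replicate 1 was 2.22 times the mean of replicates 2 and 3 in siControl, with ratios of 1.73 for siNELFA and 1.76 for siYAP, and MAP4K4 was 1.56, 1.22 and 1.20 times as high there. MOB1A went the other way, at 0.632, 0.591 and 0.434 times. STK4 (0.9084, 0.8876 and 0.8314) and NF2 (0.6655, 0.9564 and 0.6139) were also lower in replicate 1. STK3 was at 1.651, 1.586 and 1.061 times in siControl, siNELFA and siYAP. In the same order, MOB1B was at 1.563, 1.103 and 1.054 times and LATS2 at 1.195, 1.376 and 1.507 times. In siNELFA+siYAP the ratios were 1.06 for SAV1, 1.00 for MAP4K4, 1.04 for MOB1A and 0.937 for STK3. They were 1.08 for MOB1B, 1.02 for LATS2, 0.9361 for STK4 and 0.864 for NF2 there. CDH1 and EPCAM were high in the same replicate 1 libraries. Fold changes against siControl are therefore also given without siControl replicate 1. In siNELFA and siYAP this leaves their own replicate 1 in place, so those values carry its shift on the knockdown side only.

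**Figure D2:**
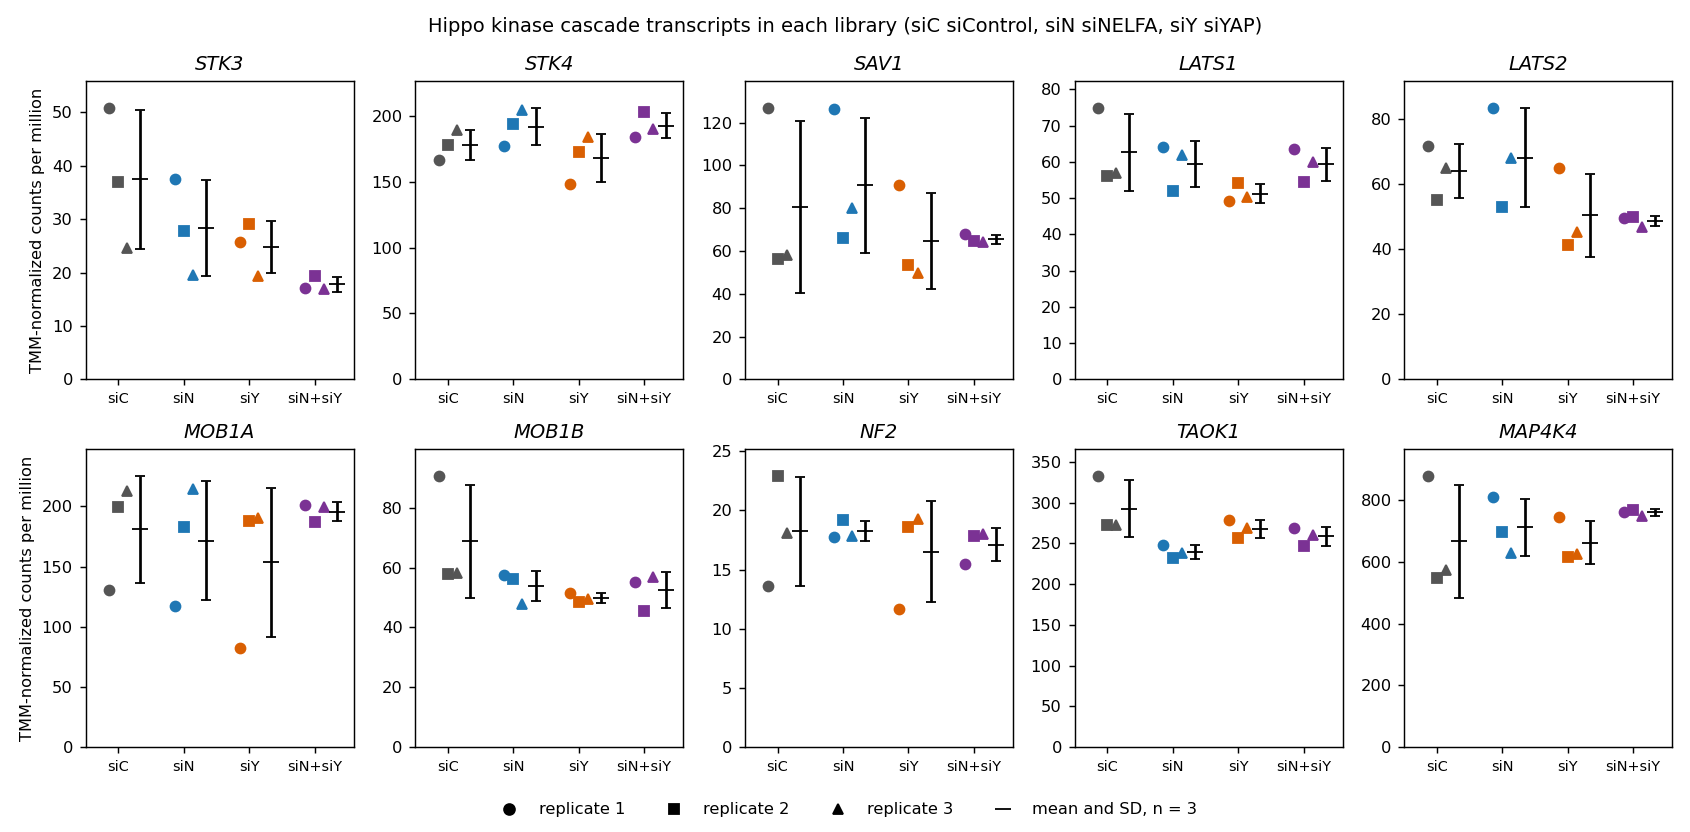
Normalized CPM (TMM scale) of each member in the 12 libraries; point shapes give the replicate, and the bar beside each group is the mean with its SD over 3 libraries. The 3 siNELFA+siYAP libraries lie close together, and replicate 1 of the other groups is apart for SAV1, MOB1A and MAP4K4.

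The MST branch held the member farthest from control. STK3 (MST2), which lies at chr8:98371228-98942827 on the minus strand of GRCh38, had 50.8, 36.9 and 24.6 CPM in the siControl libraries. It had 37.6, 27.8 and 19.6 CPM in siNELFA and 25.8, 29.2 and 19.4 CPM in siYAP. In siNELFA+siYAP it had 17.1, 19.4 and 17.0 CPM, below every library of siControl, while both single knockdowns overlapped with siControl. A lower level in a bulk library cannot be told apart between fewer expressing cells and less RNA per cell.

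The STK3 log2 fold change against siControl was -1.08 ± 0.27 (SE) in siNELFA+siYAP, with a 95% interval of -1.70 to -0.46, and it did not pass the threshold (unadjusted p = 0.00435, adjusted p = 0.109). It was -0.60 ± 0.31 in siYAP and -0.40 ± 0.34 in siNELFA (adjusted p = 1.00 for both), or -0.31 and -0.12 without siControl replicate 1. In the fit blocked on replicate number it was -0.55 ± 0.18 in siYAP and -0.39 ± 0.13 in siNELFA (adjusted p = 0.525 and 0.11). The double-knockdown value depended on tool and library, since DESeq2 gave an adjusted p of 0.00812 at the same size, and leaving out siControl replicate 1 gave -0.79 with an adjusted p of 0.0014. Those settings also called more of the genes with an adjusted p, 8.53% and 24.4% against 0.428%. The STK3 difference of siNELFA+siYAP from siControl cannot be told apart from a difference between sets of libraries.

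STK4 (MST1), the closest paralog of STK3, stayed nearer to its siControl level. It had 166.6, 177.6 and 189.1 CPM in siControl and 183.9, 202.6 and 190.4 CPM in siNELFA+siYAP, with 148.2 to 184.0 CPM in siYAP and 176.8 to 204.8 CPM in siNELFA. All groups overlapped with siControl, and the log2 fold changes were 0.11 ± 0.15 (siNELFA), -0.08 ± 0.17 (siYAP) and 0.10 ± 0.10 (siNELFA+siYAP), or 0.07, -0.12 and 0.06 without siControl replicate 1. The 95% interval in siNELFA+siYAP, -0.14 to 0.35, lay above the whole STK3 interval.

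SAV1, the scaffold that binds the MST kinases, had 126.7, 56.1 and 58.1 CPM in siControl and 126.3, 66.1 and 79.9 CPM in siNELFA. It had 90.7, 53.5 and 49.7 CPM in siYAP and 68.0, 64.4 and 64.1 CPM in siNELFA+siYAP. A single siControl library was far above the other 2, and every group overlapped with siControl. Its log2 fold changes were 0.18 ± 0.39, -0.32 ± 0.39 and -0.31 ± 0.32 in siNELFA, siYAP and siNELFA+siYAP. Without siControl replicate 1 they were 0.67, 0.18 and 0.19, which leaves the raised replicate 1 of siNELFA and siYAP in place. In the fit blocked on replicate number they were 0.23, -0.27 and -0.19. Without replicate 1 of every group the siYAP value stayed negative and the siNELFA+siYAP value turned positive. SAV1 shares 31.9% of its annotated exon bases with ATL1 on the opposite strand, and ATL1 had only 106 to 271 raw counts against 750 to 1611 for SAV1. The strand setting of the counting was not given in the sources used here.

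Of the LATS kinases, LATS2 was below every siControl library after the double knockdown and LATS1 after siYAP. LATS2, the member known as a YAP target, lies at chr13:20973036-21061586 on the minus strand of GRCh38. The 250 bases before its RefSeq start (GRCh38.p14, chr13:21061587-21061836, minus strand) and the first 30 transcribed bases (chr13:21061557-21061586) are shown, because LATS2 was the 1 member, of the 9 with a RefSeq promoter, that held the TEAD core motif GGAATG, in capitals in the second line.

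LATS2, bases before the start: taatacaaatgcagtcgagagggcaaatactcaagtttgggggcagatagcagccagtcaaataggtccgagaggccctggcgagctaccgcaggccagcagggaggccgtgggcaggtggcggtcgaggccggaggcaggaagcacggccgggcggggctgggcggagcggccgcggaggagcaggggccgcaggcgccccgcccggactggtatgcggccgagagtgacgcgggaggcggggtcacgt
LATS2, first transcribed bases: gacgcccgtGGAATGccaacaatgtagcga

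The motif, searched as GGAATG and as CATTCC on the other strand, covered bases 10 to 15 counted from the start. Among the 9 promoters (250 bases before to 50 after the start), 1 held it, against 3836 of all 27305 promoters (14.05%). The AP-1 motif TGACTCA, or TGAGTCA on the other strand, was in 0 of the 9 and in 4.92% of all promoters. A match of this length describes the letters of the window only. The windows of LATS1 (chr6:149716376-149716675) and MAP4K4 (chr2:101697457-101697756) lay inside the GENCODE genes, whose 5' ends are at 149718105 and 101696850. Motif absence there therefore depends on the start used. STK3 was not among the entries.

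LATS2 had 71.9, 55.2 and 65.2 CPM in siControl and 83.4, 53.1 and 68.1 CPM in siNELFA. In siYAP it had 65.1, 41.2 and 45.2 CPM, with only the first library within the siControl range, and in siNELFA+siYAP it had 49.6, 49.8 and 47.0 CPM, below all of siControl. The log2 fold changes were 0.09 ± 0.22 in siNELFA, -0.35 ± 0.23 in siYAP (adjusted p = 1.00 in both) and -0.41 ± 0.14 in siNELFA+siYAP (unadjusted p = 0.0212, adjusted p = 0.196). Leaving out siControl replicate 1 gave 0.19, -0.25 and -0.31, the last with an adjusted p of 0.0218, at 24.4% of all genes called. The siYAP value was -0.57 without siYAP replicate 1.

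LATS1 had 74.8, 56.1 and 57.0 CPM in siControl and 49.2, 54.3 and 50.3 CPM in siYAP, which did not overlap. It had 64.1, 52.1 and 61.9 CPM in siNELFA and 63.5, 54.5 and 59.9 CPM in siNELFA+siYAP, within or just below the siControl range. Its log2 fold changes were -0.08 ± 0.19, -0.29 ± 0.19 and -0.09 ± 0.16 in siNELFA, siYAP and siNELFA+siYAP, none past the threshold, or 0.08, -0.14 and 0.06 without siControl replicate 1. The siYAP differences of LATS1 and LATS2 were of like size, and the 2 genes were not tested against each other.

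MOB1B, 1 of the paired MOB1 co-activators of LATS, had 90.5, 57.7 and 58.2 CPM in siControl. It had 57.4, 56.1 and 48.0 CPM in siNELFA, 51.6, 48.4 and 49.4 CPM in siYAP, and 55.1, 45.6 and 56.7 CPM in siNELFA+siYAP. All 9 knockdown libraries lay below all siControl libraries, although the nearest values, 57.4 and 57.7 CPM, were almost equal. The log2 fold changes were -0.35 ± 0.23, -0.47 ± 0.23 and -0.40 ± 0.21, and none passed the threshold (adjusted p = 1.00, 1.00 and 0.361). Without siControl replicate 1, the highest library, they were -0.10, -0.22 and -0.15. The 3 comparisons share the siControl libraries, so they are not independent.

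MOB1A had 130.2, 199.6 and 212.7 CPM in siControl, 117.3, 183.1 and 214.3 CPM in siNELFA, and 82.1, 187.5 and 190.6 CPM in siYAP. It had 200.9, 186.6 and 199.4 CPM in siNELFA+siYAP. The groups overlapped throughout, with log2 fold changes of -0.07 ± 0.28, -0.24 ± 0.35 and 0.10 ± 0.18, or -0.26, -0.42 and -0.08 without siControl replicate 1. MOB1A and MOB1B are close paralogs, and how reads shared between them were counted was not given, so their separate values are uncertain. MOB1B also shares 2.3% of its exon bases with DCK on the same strand.

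Among the upstream regulators, TAOK1, a kinase that activates MST and LATS, had 332.6, 272.9 and 272.8 CPM in siControl and 248.6, 232.2 and 238.2 CPM in siNELFA, which did not overlap. It had 278.2, 256.6 and 269.4 CPM in siYAP and 269.2, 246.5 and 260.2 CPM in siNELFA+siYAP, the latter just below siControl. The log2 fold changes were -0.29 ± 0.16, -0.13 ± 0.17 and -0.19 ± 0.12 (adjusted p = 1.00, 1.00 and 0.452), or -0.18, -0.02 and -0.08 without siControl replicate 1.

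MAP4K4, which phosphorylates LATS alongside MST, had 878.0, 548.2 and 573.8 CPM in siControl, 811.2, 696.1 and 628.9 CPM in siNELFA, and 743.9, 617.3 and 626.2 CPM in siYAP. It had 761.8, 769.2 and 749.2 CPM in siNELFA+siYAP, between the siControl libraries. Its log2 fold changes were 0.09 ± 0.23, -0.02 ± 0.23 and 0.17 ± 0.19. Without the high siControl replicate 1 they were 0.35, 0.24 and 0.43, and the last then passed the threshold (adjusted p = 1.39e-05), with 24.4% of all genes called.

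NF2 had 13.6, 22.9 and 18.1 CPM in siControl, and every other group overlapped with that range, at 17.7 to 19.2 CPM in siNELFA, 11.6 to 19.3 CPM in siYAP and 15.5 to 18.0 CPM in siNELFA+siYAP. Its log2 fold changes were 0.00 ± 0.23, -0.14 ± 0.29 and -0.11 ± 0.21, or -0.16, -0.31 and -0.26 without siControl replicate 1. With 121 to 416 raw counts, NF2 was also the member with the fewest reads.

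**Figure D3:**
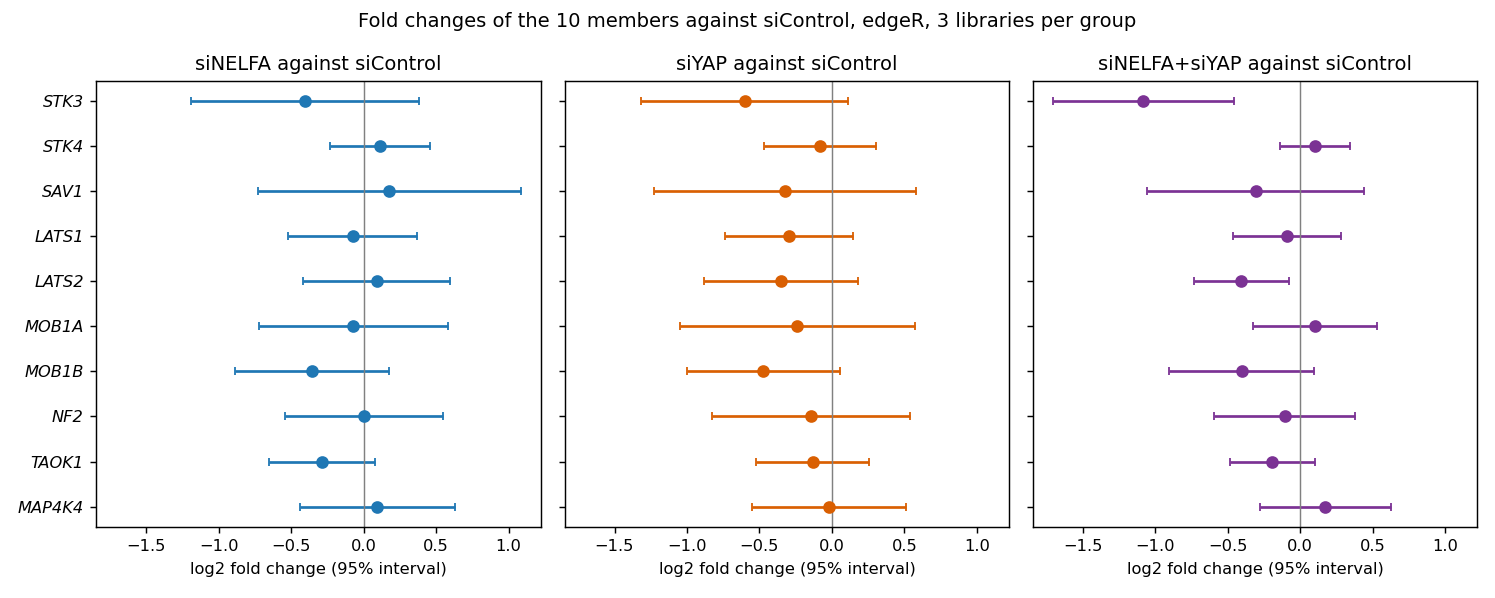
Log2 fold changes of the 10 members against siControl (points) with 95% intervals from edgeR (bars), 3 libraries per group. All 10 points lie left of 0 in siYAP, and the intervals of STK3 and LATS2 exclude 0 only in siNELFA+siYAP.

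Taken as a list, the members were split around siControl in siNELFA and lay mostly below it in siYAP and siNELFA+siYAP. These comparisons share the siControl libraries. After siNELFA, 5 lay above and 5 below siControl, and their median log2 fold change was -0.03 against 0.00 for all 17727 genes tested. After siYAP, 10 lay below siControl, at a median of -0.27 against 0.00 for all 17296 genes, of which 8683 were lower. After siNELFA+siYAP, 7 were lower and 3 higher, with a median of -0.15 against -0.03 for all 17533 genes. Set against siNELFA instead, siNELFA+siYAP had 6 lower and 4 higher, with a median of -0.02 against -0.01 for all 17463 genes. Set against siYAP, it had 3 lower and 7 higher, with a median of 0.06 against -0.03 for all 17167 genes. The siYAP median was -0.18 without siControl replicate 1, with 8 lower, -0.21 without siYAP replicate 1, with 7 lower, and -0.12 without replicate 1 of every group, with 9 lower.

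The edgeR quasi-likelihood test called 0 members at an adjusted p of 0.05 in each comparison with siControl, against 0.00564%, 0.00578% and 0.428% of all genes in siNELFA, siYAP and siNELFA+siYAP. At an unadjusted p of 0.05 the counts were 0, 0 and 2, against 4.46%, 1.3% and 18.5% of all genes. DESeq2 called 0, 0 and 1 members at its adjusted threshold, against 0.169%, 0.0116% and 8.53% of the genes it gave an adjusted p. With limma on TPM, 0 were called in each, against 0.0169%, 0% and 0.0285% of all genes. Non-overlapping lower libraries were found for 2 members in siNELFA (MOB1B and TAOK1) against 5.94% of all genes, for 2 in siYAP (LATS1 and MOB1B) against 3.64%, and for 4 in siNELFA+siYAP (STK3, LATS2, MOB1B and TAOK1) against 13.9%.

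Replicate numbers paired the libraries of siControl, siNELFA and siYAP, and in a fit blocked on that number the unadjusted counts rose while no member passed the adjusted threshold. In siNELFA the blocked fit gave 3 members under an unadjusted p of 0.05, STK3 (-0.39 ± 0.13, adjusted p = 0.111), TAOK1 (-0.28 ± 0.09, adjusted p = 0.104) and MOB1B (-0.32 ± 0.13, adjusted p = 0.197), where 20.2% of all genes were under it and 5.21% passed the adjusted threshold. In siYAP it gave 4, STK3 (-0.55 ± 0.18), LATS2 (-0.37 ± 0.14), MOB1B (-0.44 ± 0.16) and MOB1A (-0.30 ± 0.14), where 9.11% of all genes were under it and 0.0173% passed. The adjusted p of these 4 was 0.525 to 0.547.

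The double knockdown was also set against each single one. Its library names share a leading number, and its deviations did not follow same-numbered libraries of the other groups (correlations of -0.0514 to 0.0276). What the second siRNA added therefore cannot be told apart from a difference between sets of libraries. Against siNELFA, STK3 was lower by -0.67 ± 0.24 and LATS2 by -0.49 ± 0.17 on the log2 scale, at 62.9% and 71.4%, and neither passed the threshold (unadjusted p = 0.0239 and 0.0238, adjusted p = 0.735 for both). Their libraries did not overlap, as for 7.4% of all genes in that direction. SAV1 differed by -0.47 ± 0.23, LATS1 by 0.00 ± 0.13 and MAP4K4 by 0.09 ± 0.12, and all 3 overlapped. No member was called at the adjusted threshold by edgeR, DESeq2 or limma, where 0.00573%, 0.299% and 0.00573% of all genes passed, and 2 were under an unadjusted p of 0.05 in edgeR (6.62% of all genes).

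Against siYAP, STK3 was at 71.7%, a log2 difference of -0.48 ± 0.19 (unadjusted p = 0.0347, adjusted p = 0.288), with no overlap, as for 12.7% of all genes in that direction. LATS1 and MAP4K4 were higher without overlap, by 0.20 ± 0.12 and 0.19 ± 0.11, as were 13.8% of all genes. LATS2 differed by -0.05 ± 0.19, with an interval of -0.49 to 0.38, and SAV1 by 0.01 ± 0.23. MOB1A had the highest value, 0.35 ± 0.29, and its libraries overlapped. No member was called by edgeR, DESeq2 or limma, where 0.035%, 5.2% and 0.00583% of all genes passed, and 1 was under an unadjusted p of 0.05 in edgeR (15.5% of all genes). Without siYAP replicate 1, MAP4K4 (0.29, adjusted p = 0.00364) and SAV1 (0.34, adjusted p = 0.017) passed, with 16.5% of all genes called.

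The interaction term, which tests whether the double knockdown departs from the sum of the single ones on the log2 scale, ran from -0.16 to 0.43 over the members. The smallest unadjusted p was 0.124 and every adjusted p was 1.00. It was -0.07 ± 0.40 for STK3, -0.14 ± 0.29 for LATS2, 0.29 ± 0.21 for LATS1, 0.10 ± 0.25 for MAP4K4 and -0.16 ± 0.49 for SAV1. MOB1B (0.43 ± 0.26) and MOB1A (0.43 ± 0.44) had the highest values. edgeR, DESeq2 and limma called 0 members, 0 were under an unadjusted p of 0.05 in edgeR, and 0% of 18525 genes passed, against 1.76% at an unadjusted p of 0.05. Whether the knockdowns acted additively on these transcripts was not resolved at this spread. The term also cannot tell a departure from additivity apart from a separate origin of the siNELFA+siYAP libraries.

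**Figure D4:**
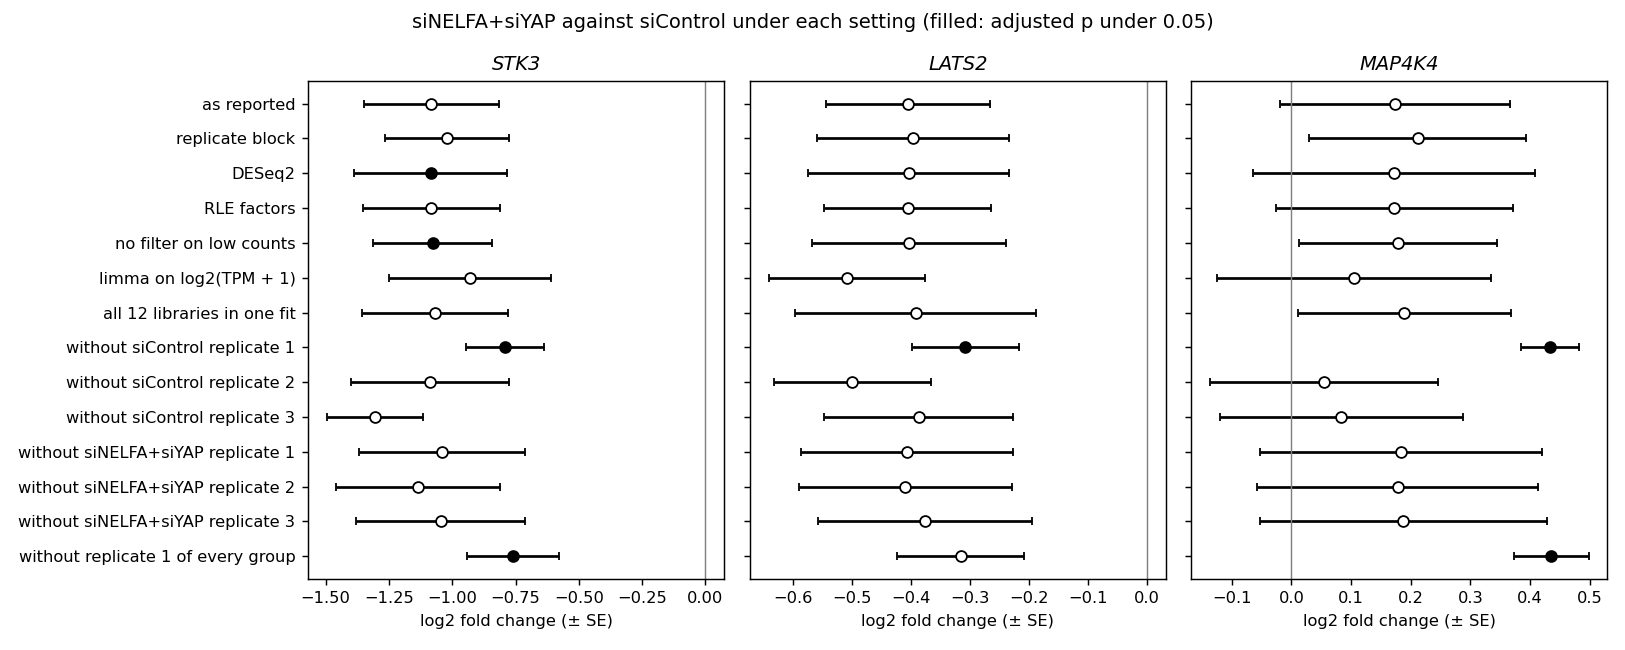
Log2 fold change (points) and SE (bars) of STK3, LATS2 and MAP4K4 in siNELFA+siYAP against siControl under each setting; filled points have an adjusted p under 0.05. STK3 and LATS2 stay below 0 in every setting, and MAP4K4 moves from 0.17 to 0.43 when siControl replicate 1 is left out.

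Paralog balance, as the share of 1 member in the summed TPM of a pair, was compared by library without a test. STK3 made up 27.0% ± 7.9 (SD, n = 3) of STK3 and STK4 in siControl and 23.8% ± 5.9 after siNELFA. It made up 25.8% ± 4.3 after siYAP and 16.9% ± 1.9 after the double knockdown. The siNELFA+siYAP shares of 15.0% to 18.75% overlapped with the lowest siControl library, at 18.1%. LATS1 made up 50.8% ± 3.2, 49.4% ± 1.9, 54.6% ± 4.3 and 57.2% ± 1.9 of the LATS pair in the same order, and its siNELFA+siYAP shares of 55.9% to 59.4% lay above the siControl shares of 48.9% to 54.5%. MOB1A made up 74.2% ± 10.1, 79.3% ± 6.6, 77.8% ± 9.6 and 83.2% ± 2.2 of the MOB1 pair. Its siNELFA+siYAP shares of 80.64% to 84.66% also lay above the siControl shares of 62.57% to 80.08%.

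**Figure D5:**
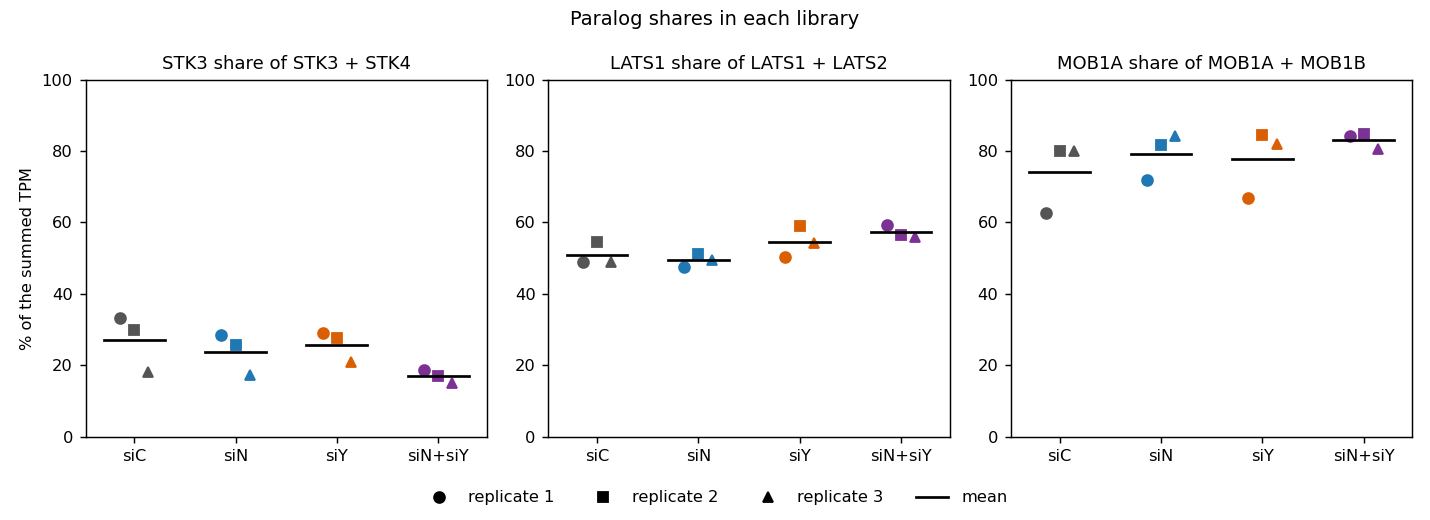
Share (%) of STK3, LATS1 and MOB1A in the summed TPM of their paralog pair in each library; point shapes give the replicate and the line is the mean. The STK3 share is lowest in siNELFA+siYAP, where it runs from 15.0% to 18.75%.

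Around the 10 members, a wider list of 77 Hippo regulators (75 in the counts) was counted. It held other kinases (mainly MAP4K, TAO and NDR), scaffolds, angiomotins, PTPN phosphatases and LATS inhibitors of the Ajuba and zyxin families. The STRIPAK phosphatase complex, polarity and junction genes, protocadherins and YAP turnover factors made up the rest. After siNELFA, 41 of 70 tested genes were higher and 29 lower, with a median of 0.04. After siYAP, 29 of 69 were higher and 40 lower, with a median of -0.08. After siNELFA+siYAP, 29 of 70 were higher and 41 lower, with a median of -0.05. None passed the adjusted threshold in edgeR, and 3, 2 and 12 were under an unadjusted p of 0.05, where 4.46%, 1.3% and 18.5% of all genes were. DESeq2 called 0, 0 and 3, against 0.169%, 0.0116% and 8.53% of the genes it gave an adjusted p.

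FAT1, an atypical cadherin that acts upstream of the cascade, was the single gene of the wider list past the adjusted threshold with the replicate block. Its mean was 539.7 CPM in siControl and 747.7 CPM in siNELFA, a blocked log2 fold change of 0.46 ± 0.09 (adjusted p = 0.0139), where 5.21% of all genes passed. Without the block it was 0.47 ± 0.19 (adjusted p = 1.00). FAT1 averaged 804.3 CPM in siNELFA+siYAP and 476.8 CPM in siYAP.

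The genes whose levels ran most like those of LATS2 over the 12 libraries were TMEM245 (Pearson r = 0.947, Spearman rho = 0.895), the keratin KRT7 (r = 0.940, rho = 0.930) and WWC1 (r = 0.926, rho = 0.937), of 12970 genes averaging at least 50 counts. WWC1 (KIBRA) is itself a Hippo scaffold that works with NF2. These correlations are descriptions over libraries that share groups and replicate numbers.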

How the data were processed

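The count table deposited by the authors holds raw counts per Ensembl gene from 12 stranded, rRNA-depleted libraries. Per the labels and methods, reads were aligned with STAR to GRCh38 and counted with featureCounts, whose version, strand and multi-mapping options were not given in the sources used here. The TPM values deposited by the authors gave levels per gene length (the 2 SAV1 lines were summed). FPKM columns were not used.

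Counts were tested with edgeR 4.0.16 in R 4.3.3 (TMM, filterByExpr with a minimum count of 10, quasi-likelihood test, Benjamini-Hochberg adjustment over all genes tested), pairwise over 6 libraries, and over 12 for the interaction. Normalized CPM used TMM factors over 12 libraries. Alternatives were DESeq2 1.42.0, RLE factors, no low-count filter (at least 1 count), limma 3.58.1 on log2(TPM + 1), the replicate block, all 12 libraries in one fit, leaving out each library, and leaving out replicate 1 of every group. DESeq2 left some genes without an adjusted p, and its shares throughout are of the genes that have one. The scripts were tested on simulated data. Deviations of same-numbered libraries from their group means correlated at 0.65 to 0.889 among siControl, siNELFA and siYAP, and at -0.0514 to 0.0276 with siNELFA+siYAP, over 12971 genes averaging at least 50 counts.

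Members and lists were chosen with earlier results of these data known. All members are described. Genes of the wider list are named only where an adjusted p, blocked or not, passed 0.05, NELFA and YAP1 serve as references, a fixed list of markers checks the cell line, and the 3 genes most correlated with LATS2 are given. In the comparisons between knockdowns and in the interaction, values are given for STK3, LATS1, LATS2, MAP4K4 and SAV1, chosen after their values were seen. MOB1A against siYAP, and MOB1A and MOB1B in the interaction, are added as the highest values. Coordinates and exon overlaps come from GENCODE 44, and promoters from RefSeq GRCh38.p14. The SEs, intervals and p-values rest on the spread between libraries, and low-count members are less precise.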

Additional observations from a re-analysis of the deposited data

How the results depend on the processing

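Of 310 log2 fold changes of single members under settings other than leaving out 1 library, 283 kept direction and side of the threshold, 5 passed it and 22 reversed; of 300 with 1 library left out, 252 kept both, 5 passed and 43 reversed. The cause of each change was not tested.

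For siNELFA+siYAP against siControl, members past the adjusted threshold went from 0 to 1 with DESeq2, 1 without the low-count filter (STK3, adjusted p = 0.0393), 2 without replicate 1 of every group (STK3, -0.76, and MAP4K4, 0.44), and 0 to 3 with 1 library left out, the 3 without siControl replicate 1. All genes called went from 75 to 1348 with DESeq2, 381 without the filter, 3259 without replicate 1 of every group and 4531 without siControl replicate 1, and to 2 with the replicate block (8.53%, 1.19%, 17.9%, 24.4% and 0.0114% of all genes). The wider list went from 0 to 3, 2 and 14 under the first 3 settings, and 0 to 22 with 1 library left out. Against siNELFA the wider list gave 2 (DESeq2), 1 (no filter), 1 (without replicate 1 of every group) and 0 to 4 with 1 library left out, the 4 without siNELFA replicate 1, where 0.299%, 0.081%, 0.157% and 1.25% of all genes were called. Against siYAP, members gave 1 without replicate 1 of every group (MAP4K4, 0.29, adjusted p = 0.0444) and 0 to 2 with 1 library left out, the 2 without siYAP replicate 1; the wider list gave 2 (DESeq2), 1 (no filter), 4 and 0 to 8. All genes called there were 5.2% (DESeq2), 0.695% (no filter), 7.7% (without replicate 1 of every group) and 16.5% (without siYAP replicate 1). The replicate block gave 1 gene of the wider list in siNELFA (FAT1) and raised all genes called there from 1 to 924, turned MAP4K4 in siYAP to 0.0143, and changed no other member's call or direction.

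Reversed values in siNELFA were, with limma on TPM, LATS2 -0.16, STK4 -0.22, NF2 -0.25 and MAP4K4 -0.12 (that scale moved the median of all genes to -0.17); with DESeq2, NF2 -0.0022; with all 12 libraries in one fit, NF2 -0.0004971; and without replicate 1 of every group, LATS1 0.0208 and NF2 -0.14. In siYAP, MAP4K4 was 0.0266 with limma and 0.15 without replicate 1 of every group. In siNELFA+siYAP against siControl, STK4 was -0.17 and TAOK1 0.0728 with limma (median of all genes -0.11), and LATS1 0.0178, SAV1 0.17 and MOB1A -0.095 without replicate 1 of every group. Against siNELFA, LATS1 was 0.0691 with limma and 0.0067 without replicate 1 of every group, and against siYAP, LATS2 was 0.16 without it. In the interaction, LATS2 was 0.0469 and SAV1 0.0474 with limma, and LATS2 0.14 without replicate 1 of every group.

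Leaving out 1 library gave these ranges. In siNELFA, LATS1 ran from -0.15 to 0.0759, LATS2 from -0.0747 to 0.25, SAV1 from -0.13 to 0.67, MOB1A from -0.27 to 0.14, NF2 from -0.16 to 0.20 and MAP4K4 from -0.0246 to 0.35. In siYAP, STK4 ran from -0.16 to 0.0020, SAV1 from -0.64 to 0.18, MOB1A from -0.43 to 0.0638, NF2 from -0.31 to 0.0526 and MAP4K4 from -0.15 to 0.24. In siNELFA+siYAP against siControl, LATS1 ran from -0.16 to 0.0634, SAV1 from -0.51 to 0.19, MOB1A from -0.0795 to 0.24 and NF2 from -0.26 to 0.094. Against siNELFA, LATS1 ran from -0.0905 to 0.0536, and against siYAP, LATS2 from -0.18 to 0.17 and SAV1 from -0.14 to 0.34. In the interaction, LATS2 ran from -0.29 to 0.0875, STK3 from -0.35 to 0.19, MAP4K4 from -0.14 to 0.22 and SAV1 from -0.64 to 0.17.

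With 3 libraries a group, members with small differences could not be resolved, and NF2 rested on the fewest counts.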

Other observations

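Within the wider list, groups of regulators were counted by role, without a test of the groups. Of all tested genes, 8868 of 17727 were higher in siNELFA, 8613 of 17296 in siYAP and 8304 of 17533 in siNELFA+siYAP. All 5 LATS inhibitors, LIM proteins of the Ajuba and zyxin families, were higher in siNELFA (median log2 fold change 0.13). In edgeR, 0 of these 5 were under an unadjusted p of 0.05 there. In siYAP 3 of 5 were higher (0.12), and in siNELFA+siYAP 1 of 5 (-0.15). Of 9 tested KIBRA, FERM and RASSF scaffolds, 5 were higher after siNELFA (median 0.04), 4 after siYAP (-0.04) and 2 after the double knockdown (-0.25). Of the STRIPAK phosphatase complex, which opposes MST kinases, 5 of 13 were higher after siNELFA (-0.10), 4 after siYAP (-0.17) and 6 after the double knockdown (-0.02). Of the polarity and junction genes, 7 of 12 were higher after siNELFA (0.05), 5 after siYAP (-0.06) and 3 after the double knockdown (-0.13). All 4 protocadherins were higher in siNELFA (0.37), 0 of 3 tested in siYAP (-0.18) and 3 of 4 in siNELFA+siYAP (0.35). Of 4 tested angiomotins and PTPN phosphatases, 1 was higher after siNELFA (-0.16), 1 after siYAP (-0.18) and 0 after the double knockdown (-0.12). Of 12 other kinases, mainly MAP4K, TAO and NDR, 6 were higher after siNELFA (0.01), 8 after siYAP (0.10) and 7 after the double knockdown (0.01). Of 11 YAP degradation and retention factors, 8 were higher after siNELFA (0.05), 4 after siYAP (-0.08) and 7 after the double knockdown (0.04). Apart from FAT1, a protocadherin, in siNELFA with the block, none of these genes passed the adjusted threshold in edgeR with or without the block.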
